A study of Mus musculus with 4 samples.

Results

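Cytosolic ribosomal protein genes were followed in RNA sequencing libraries of mouse forelimbs from Shh null and wild-type littermate embryos. A gene belonged to the group if its symbol was Rpsa, Rplp0 to Rplp2, or Rpl or Rps with a number, optionally followed by a, l or x. The value of the gene also had to reach 1 CPM in 2 or more of the 4 libraries. Of 17712 genes in the deposited table, 78 had such a symbol and 73 also met the value limit, 43 of the large and 30 of the small subunit. Symbols that encode other ribosomal proteins but have another form, such as Fau and Rps3a1, were not members and are given separately.

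Each genotype had 2 libraries. The Shh null and wild-type embryos shared the Swiss Webster background, an outbred stock, and were staged at 33 to 35 somites. The age label gives embryonic stage E10.25 and the source label E10.5. The labels describe neither the Shh allele nor the number of embryos behind a library, and the design text calls the replicates technical, so the p-values below measure only the spread between these libraries. Shh, which encodes the signalling protein of the posterior limb margin, was measured at 3.15 and 2.42 CPM in Shh null and at 11.4 and 7.88 CPM in wild type (log2 fold change −1.47 ± 0.21 SE, limma adjusted p = 0.00615), in the direction of the labels. The Shh call ended without Shh null 1 or Shh null 2 (limma adjusted p = 0.0693 and 0.0767).

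The values are CPM, read counts relative to the TMM-scaled size of each library, and the libraries held 23206944 and 21489093 reads in Shh null and 29620468 and 18456502 reads in wild type. All 7 limb mesenchyme markers, among them Prrx1 and Tbx5, were above the value limit, with summed levels of 1498 and 1466 CPM in Shh null and 1000.4 and 1036 CPM in wild type. Of these 7, limma called 4 higher (Prrx1, Prrx2, Twist1 and Lhx9) and 1 lower (Fgf10), against a background of 1.24% of tested genes in each direction. None of these calls held without Shh null 1 or without Shh null 2. Summed over 6 erythroid markers, the embryonic globins included, the level was 3732 and 6338 CPM in Shh null and 10997 and 2943 CPM in wild type, so that erythroid RNA varied within each genotype. The groups also differed in sex-linked RNA. Xist was at 522 and 468 CPM in Shh null against 225 and 152 CPM in wild type (limma adjusted p = 0.00215; 0.0819 without Shh null 1), and all 4 Y-linked genes measured were lower in Shh null. The sex composition and the genotype of these libraries therefore cannot be told apart.

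The ribosome is built of ribosomal RNA and of one copy of most of its proteins. The large subunit joins amino acids, and the small subunit reads the messenger RNA. Ribosomal protein genes are scattered over the genome, are expressed together in nearly all cells, and often carry at their transcription start an unbroken run of the pyrimidines C and T. This run lets their messenger RNAs be translated according to nutrient and growth signals. Mouse embryos with too little of single ribosomal proteins can have tissue-specific defects, of the skeleton and pigment among them.

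Sequences around the annotated start are shown because the start is a shared feature that did not enter the choice of the genes. The 73 genes lay on 18 chromosomes, and RefSeq (GRCm38.p6) start windows were matched to 54 of them. Each window holds 30 bases in the direction of transcription, the first transcribed base is letter 16, and capitals mark an unbroken run of at least 8 C or T that lies in or reaches into the 10 bases on either side of the start. In the first 7 genes a C stood at the start and at least 4 C or T followed it, and in the last 3 it did not.
Rpl15: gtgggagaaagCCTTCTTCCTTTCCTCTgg
Rpl35: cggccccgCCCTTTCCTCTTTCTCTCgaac
Rpl38: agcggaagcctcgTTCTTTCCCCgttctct
Rplp2: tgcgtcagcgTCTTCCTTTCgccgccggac
Rps6: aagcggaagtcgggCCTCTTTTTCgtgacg
Rps10: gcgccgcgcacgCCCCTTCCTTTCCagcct
Rps18: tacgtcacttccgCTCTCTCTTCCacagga
Rplp0: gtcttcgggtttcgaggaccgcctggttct
Rpl23: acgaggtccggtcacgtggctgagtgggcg
Rps27l: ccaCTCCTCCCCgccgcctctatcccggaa

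On the minus strand lay Rpl15 (chr14:18270972-18271001), Rpl35 (chr2:39005117-39005146), Rps6 (chr4:86857353-86857382), Rps10 (chr17:27635230-27635259), Rps18 (chr17:33955651-33955680) and Rpl23 (chr11:97782425-97782454). On the plus strand lay Rpl38 (chr11:114668565-114668594), Rplp2 (chr7:141447636-141447665), Rplp0 (chr5:115559452-115559481) and Rps27l (chr9:66946071-66946100). A start C with at least 4 following pyrimidines was found in 12 of the 54 genes (22.2%), 7 of 32 large subunit genes and 5 of 22 small subunit genes, against 303 of 9690 tested genes with a window (3.1%) and 0 of 67 mitochondrial ribosomal protein genes. A run of at least 8 pyrimidines near the start was found in 26 of the 54 genes (48.1%), against 17.2% of tested genes and 16.1% of all genes in the promoter table. The letters TATAAA, searched on the coding strand in the 40 bases before the start, were in none of the 54 genes and in 1.5% of tested genes. A match describes the letters at the annotated start, which may differ from the start used in the limb.

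No ribosomal protein gene passed the test between Shh null and wild-type forelimbs. Of the 73 genes, 0 were called higher and 0 lower by limma at an adjusted p under 0.05, where 1.24% of the 13224 tested genes were called higher and 1.24% lower. At an unadjusted p under 0.05 limma gave 0 higher and 1 lower (Rps27l), with a background of 9.5% and 9.02%. The edgeR quasi-likelihood test and DESeq2 also called 0, where they called 2.45% and 3.98% of tested genes in either direction. At an unadjusted p under 0.05, edgeR had 1 member lower (background 8.39%) and 0 higher (9.99%), and DESeq2 had 2 lower (7.69%) and 0 higher (6.62%). The authors' deposited table gave a false discovery rate under 0.05 for 0 of the 73 genes, against 4.01% of all genes, and the lowest was 0.234, for Rps27l. The members were deeply counted, the fewest reads in any library being 1106, for Rps27l, and the most 72137, for Rplp0.

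Fitted log2 fold changes, on the scale of log2(CPM + 1), ranged between −0.38 for Rps27l and 0.17 for Rpl23. Of the 73 genes, 62 (84.9%) were below 0, against 50.1% of all tested genes and 78.6% of the 1315 other genes of highest mean CPM. The median of the 73 log2 fold changes was −0.09, below the −0.0005 of all tested genes. That median moved to 0.02 with quantile normalization, to 0.04 without Shh null 1 and to 0.01 without wild type 1, and to −0.23 without Shh null 2 and −0.18 without wild type 2, so the family as a whole had no direction that held in every setting. Over the members, the lower 95% limits had a median of −0.40 and the upper limits a median of 0.21. Only Rps27l had an interval that left out 0. In bulk tissue, fewer cells of a type and less RNA per cell cannot be told apart.

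**Figure D1:**
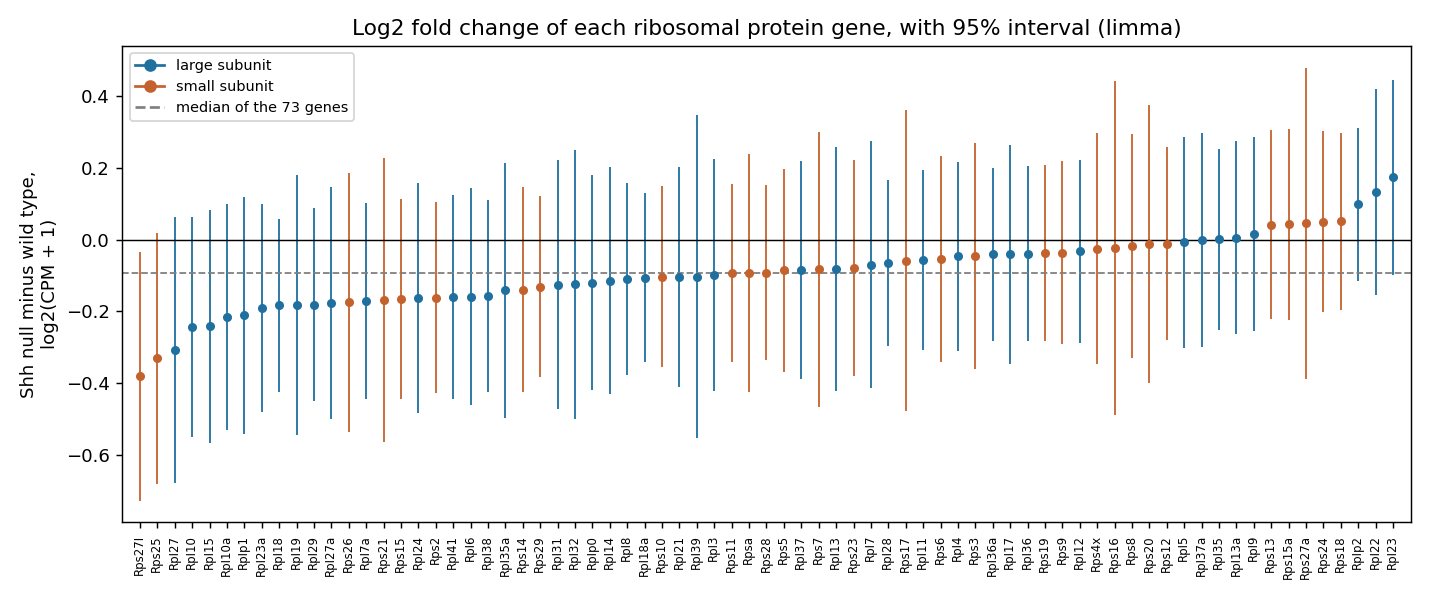
Log2 fold change, Shh null minus wild type on the scale of log2(CPM + 1), of each of the 73 ribosomal protein genes (points, ordered along the horizontal axis; blue large subunit, orange small subunit) with its 95% limma interval (bars, n = 2 libraries per genotype). The dashed line is the median of −0.09, which turned above 0 with quantile normalization and without Shh null 1 or wild type 1, and all intervals except that of Rps27l cross 0.

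The members differed more between single libraries of a genotype than between the genotype means. The median gene differed by 0.24 between the Shh null libraries and by 0.21 between the wild-type libraries, in absolute log2 units, whereas the absolute log2 fold change between genotypes had a median of 0.10. Over all tested genes these medians were 0.14, 0.13 and 0.15. Shh null 1 was below Shh null 2 in 70 of the 73 genes (background 49.3%), and wild type 1 was above wild type 2 in 64 (51.7%). Both held in 63 genes, against 29.1% of tested genes. Library order crossed the genotypes as well, with Shh null 2 above wild type 2 in 64 genes (50.3%) and Shh null 1 below wild type 2 in 62 (49.9%).

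The order from low to high was Shh null 1, wild type 2, Shh null 2 and wild type 1 in 34 genes, and the same with the last pair exchanged in 18. Shh null 1 was the lowest library in 59 genes (background 29.6%) and wild type 1 the highest in 41 (28.3%). Relative to each gene's mean over the libraries, the median gene stood at −0.18 in Shh null 1 and 0.08 in Shh null 2, against 0.15 in wild type 1 and −0.04 in wild type 2, while the medians of all tested genes were within 0.01 of 0. Erythroid markers had the same order of libraries within each genotype in all 6 genes, with median deviations of −0.41 and 0.19 in Shh null and 1.07 and −0.76 in wild type. Their part in the ribosomal pattern was not tested.

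**Figure D2:**
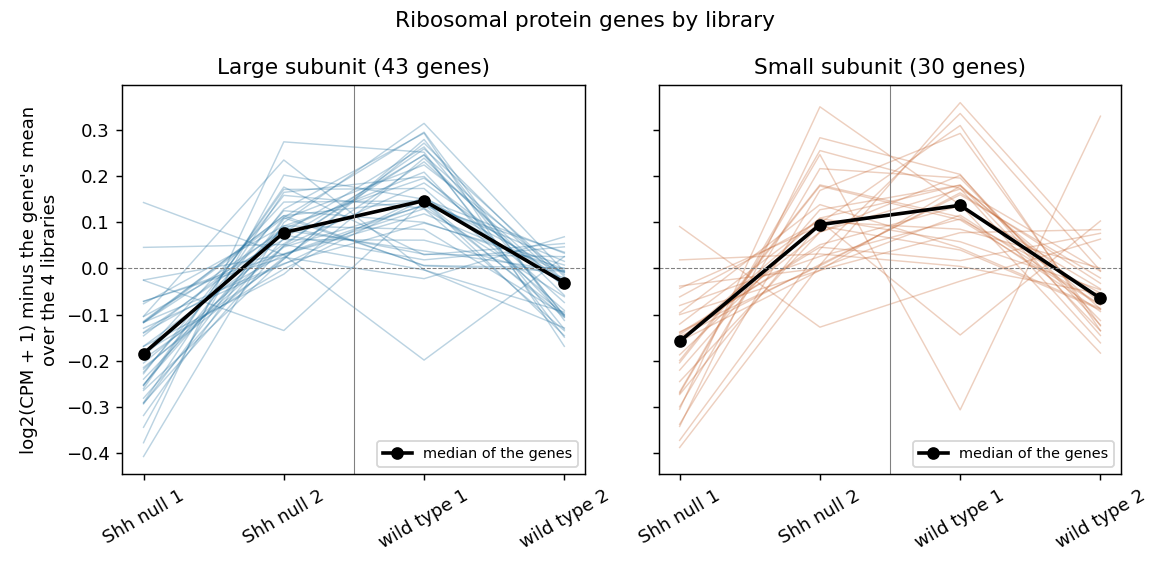
Each thin line is 1 gene, the 43 large subunit genes on the left and the 30 small subunit genes on the right, and gives log2(CPM + 1) minus the gene's mean over the 4 libraries in Shh null 1, Shh null 2, wild type 1 and wild type 2 (black, median of the genes). In both panels Shh null 1 was lowest and wild type 1 highest by the median, with Shh null 2 above wild type 2.

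**Figure D3:**
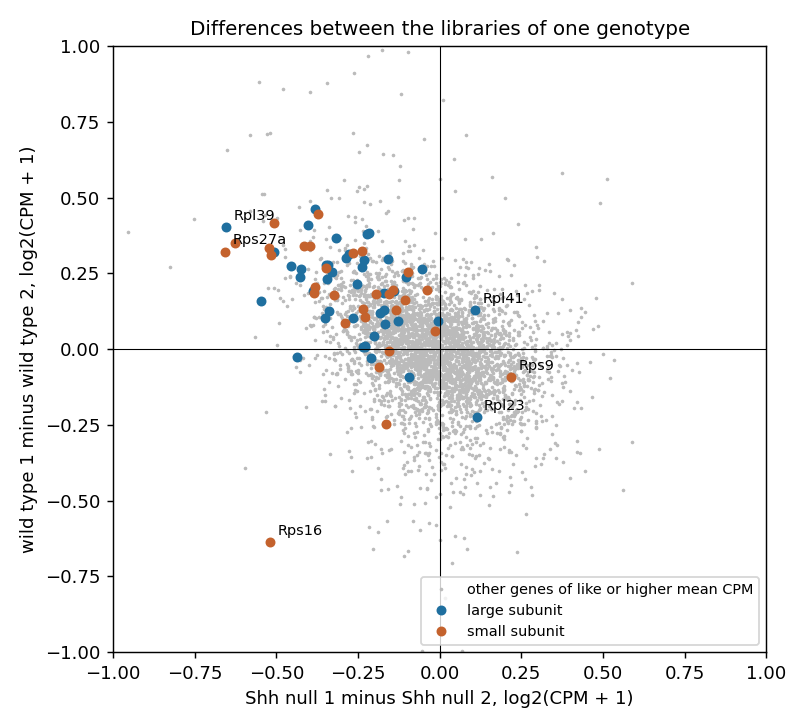
Difference between the libraries of one genotype for each gene, Shh null 1 minus Shh null 2 on the horizontal axis and wild type 1 minus wild type 2 on the vertical axis, both in log2(CPM + 1), for large subunit genes (blue), small subunit genes (orange) and 3720 other genes with a mean of at least 61.4 CPM (grey; a few lie beyond the axes). The upper left quadrant held 63 of the 73 ribosomal protein genes and 33.7% of the other genes.

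The large and small subunits stood in a nearly constant ratio. The sum over large subunit genes was 31413 and 36811 CPM in Shh null and 38298 and 34147 CPM in wild type, and the sum over small subunit genes was 20907 and 24687 CPM in Shh null and 25143 and 22441 CPM in wild type. Large subunit genes thus had 1.503 and 1.491 times the summed level of small subunit genes in Shh null and 1.523 and 1.522 times in wild type. The size of this ratio depends on the membership rule. The sums cover 43 large and 30 small subunit genes and leave out ribosomal genes with symbols of another form, such as the abundant Rps3a1. Over both subunits the sum averaged 56909 ± 6490 CPM in Shh null and 60014 ± 4846 CPM in wild type (SD, n = 2 each), a difference smaller than either spread.

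The median log2 fold change was −0.11 for the large subunit, with 37 of 43 genes below 0, and −0.07 for the small subunit, with 25 of 30 below 0. With quantile normalization both medians were above 0 (0.003 and 0.03), as they were without Shh null 1 (0.03 and 0.06). Without wild type 1 they were −0.01 for the large and 0.04 for the small subunit. The large minus small difference of these medians was −0.04 and kept its sign in every alternative run. By library, the median deviation of large minus small subunit genes was −0.03 and −0.02 in Shh null and 0.01 and 0.03 in wild type. Neither this difference nor the ratio of the sums overlapped between the genotypes, and neither was tested, since the smallest exact permutation p of 2 against 2 libraries is 0.333. Neither subunit held a called gene.

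The interval excluded 0 for Rps27l alone, a paralog of Rps27 that responds to p53 in human cells (chr9:66946086-66949516). Rps27l was measured at 45.9 and 60.7 CPM in Shh null and at 77.7 and 61.3 CPM in wild type. Both Shh null libraries were below both wild-type libraries, Shh null 2 and wild type 2 by a small margin. The log2 fold change was −0.38 ± 0.15 (SE; 95% interval −0.73 to −0.04) and did not pass (limma adjusted p = 0.228), although it passed without wild type 2 (adjusted p = 0.0216). Rps25, a small subunit protein used in initiation at internal entry sites, had 465 and 620 CPM in Shh null and 761 and 600 CPM in wild type. Shh null 2 lay above wild type 2, so the groups overlapped (−0.33 ± 0.16 SE, limma adjusted p = 0.292; 0.0493 without wild type 2). Rpl27, of the large subunit, had 290 and 413 CPM in Shh null and 479 and 383 CPM in wild type and overlapped in the same way (−0.31 ± 0.17 SE, limma adjusted p = 0.355). Without wild type 2, Rps25 and Rps27l were the 2 members called lower, where 3.15% of tested genes were. Pairing Shh null 1 with wild type 2 and Shh null 2 with wild type 1, a choice made after seeing the data, called Rps27l, Rps25 and Rpl27 lower (limma adjusted p = 0.0158, 0.0129 and 0.0223), where it called 5.63% of tested genes lower.

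At the other end stood Rpl23, a large subunit protein that also binds Mdm2, the ligase that degrades p53 (chr11:97777527-97782437). Rpl23 had 1227 and 1134 CPM in Shh null and 968 and 1131 CPM in wild type. Both Shh null libraries were above both wild-type libraries, with 1134 and 1131 CPM nearly touching (log2 fold change 0.17 ± 0.12 SE, limma adjusted p = 0.483). Rpl22, which with its paralog Rpl22l1 is known for roles in T cell development, had 560 and 709 CPM in Shh null and 601 and 551 CPM in wild type, a log2 fold change of 0.13 that turned to −0.04 without Shh null 2.

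Groups did not overlap in 7 of the 73 genes, 3 with Shh null above (Rpl23, Rplp2 and Rps18) and 4 with Shh null below (Rps27l, Rpl18, Rps2 and Rpl41), against a background of 25.1% and 25.0% of tested genes. Non-overlapping groups were thus rarer among ribosomal protein genes than among tested genes as a whole. Rps18, in the head of the small subunit, was at 1250.0 and 1261 CPM in Shh null and 1238 and 1188 CPM in wild type (0.05 ± 0.11 SE). Rps2, which lines the entry of the messenger RNA channel, had 1380.3 and 1536 CPM in Shh null and 1626 and 1633 CPM in wild type (−0.16 ± 0.12 SE). Rpl18 had 449.8 and 510.2 CPM in Shh null and 567 and 522 CPM in wild type (−0.18 ± 0.11 SE). None of the 7 passed the test, the lowest limma adjusted p among them being the 0.228 of Rps27l.

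Genes of the stalk, which calls elongation factors to the large subunit, did not share a sign. Rplp0 (chr5:115559467-115563727), its base, had 2077 and 2287 CPM in Shh null and 2532 and 2218 CPM in wild type, and Rplp1 had 459 and 617 CPM in Shh null and 669 and 568 CPM in wild type. Both had Shh null 2 above wild type 2 (log2 fold changes −0.12 and −0.21). Rplp2, the partner of Rplp1, was at 341 and 343 CPM in Shh null and 330 and 309 CPM in wild type and had the smallest standard error of all members (0.10 ± 0.10 SE, limma adjusted p = 0.624).

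Rpl5 and Rpl11, which join the large subunit as one particle with its smallest ribosomal RNA and bind Mdm2 when left unassembled, were nearly level between genotypes. Rpl5 had 1987 and 2327 CPM in Shh null and 2166 and 2158 CPM in wild type, and Rpl11 had 581 and 684 CPM in Shh null and 657 and 654 CPM in wild type. In both genes the wild-type libraries lay between the Shh null libraries. Their log2 fold changes were −0.01 ± 0.13 and −0.06 ± 0.11 (SE).

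Of the large subunit proteins near the catalytic centre, Rpl3 had 1660 and 2116 CPM in Shh null and 2079 and 1938 CPM in wild type (−0.10 ± 0.14 SE). Rpl10 (chrX:74270812-74273135), among the last proteins to be added to the subunit, had 539 and 657 CPM in Shh null and 783 and 635 CPM in wild type (−0.24 ± 0.14 SE, limma adjusted p = 0.372). Both overlapped, Shh null 2 being above wild type 2. Rpl39, which lines the tunnel through which the new protein leaves, had the largest ratio between the Shh null libraries among large subunit genes, with 593 and 933 CPM in Shh null and 919 and 696 CPM in wild type (−0.10 ± 0.20 SE). Shh null 2 had 1.57 times the level of Shh null 1, more than the median of 1.18 times over all members. Rpl15, Rpl10a, Rpl29, Rpl13a and Rpl9 had log2 fold changes between −0.24 for Rpl15 and 0.02 for Rpl9.

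In mice, mutants of Rpl38 (Tail short), Rpl24 (Belly spot and tail), Rpl27a, Rps19, Rps20 and Rps7 are known for skeletal, pigment or neural defects, and Rps6 is the small subunit protein phosphorylated by S6 kinases. In the fit to all 4 libraries the 7 log2 fold changes were below 0, between −0.18 for Rpl27a and −0.01 for Rps20, and 0 were called by limma, edgeR or DESeq2, with 0 at an unadjusted p under 0.05 in each. Rpl38, needed in mouse embryos for normal vertebral patterning, had 298 and 355 CPM in Shh null and 390 and 336 CPM in wild type. Shh null 1 was lowest and wild type 1 highest, with the other two libraries between them and in crossed order (−0.16 ± 0.12 SE, limma adjusted p = 0.522). Rps6 was at 1952 and 2102 CPM in Shh null and at 2224 and 1989 CPM in wild type (−0.05 ± 0.13 SE). The shared sign did not hold without wild type 1. There every one of the 7 except Rpl38 was above 0, between 0.02 for Rpl27a and 0.16 for Rps20. The sign also failed without Shh null 1, where Rps7 and Rps20 were above 0 (0.18 and 0.25). With quantile normalization Rps7, Rps19 and Rps20 were above 0.

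Within the small subunit, Rps27a, whose protein is made fused to ubiquitin, had 565 and 891 CPM in Shh null and 768 and 615 CPM in wild type. The Shh null libraries lay on either side of both wild-type libraries, at a ratio of 1.58 that was the highest of all members (0.05 ± 0.19 SE, limma adjusted p = 0.930). Rps16 was the exception to the common order, with 122 and 175 CPM in Shh null and 119 and 186 CPM in wild type, so that wild type 1 was 0.641 times wild type 2. Rpsa, also known as the laminin receptor, had 1072 and 1365 CPM in Shh null and 1417 and 1176 CPM in wild type (−0.09 ± 0.15 SE). Rps9, on the messenger RNA channel, was with Rpl23 and Rpl41 among the 3 genes in which Shh null 1 was above Shh null 2, at 748 and 642 CPM in Shh null, against 689 and 734 CPM in wild type. Rps14, Rps15, Rps21, Rps26, Rps13, Rps15a and Rps24 had log2 fold changes between −0.18 for Rps26 and 0.05 for Rps24.

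Because the genotypes differed in sex-linked RNA, the 4 X-linked members Rpl10, Rpl36a, Rpl39 and Rps4x were set beside the others. Their median log2 fold change was −0.07, beside the −0.09 of all members, and their median deviations were −0.23 and 0.12 in Shh null and 0.18 and −0.05 in wild type. Rps4x, which has a Y-linked relative in humans, had 949 and 1238 CPM in Shh null and 1177 and 1035 CPM in wild type, with both wild-type libraries between the Shh null libraries.

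Levels were also compared between genes, as CPM per kilobase of the principal messenger RNA in GENCODE M21 (mm10). The median was 816 over all members, 816 for the large and 786 for the small subunit. Rpl41, the smallest ribosomal protein and a bridge between the subunits (chr10:128548114-128549305), was highest, at 3921 and 3635 CPM per kilobase in Shh null and 4412 and 4034 in wild type. Rps14 followed at a mean of 2518, Rps6 at 2354 and Rps18 at 2204. Rps14 was above Rps6 in every library, although their ranges over the libraries overlapped. Rps14 had 2266 and 2526 in Shh null and 2806 and 2475 in wild type. Rps6 had 2224 and 2394 in Shh null and 2533 and 2266 in wild type. The lowest was Rps27l, with a mean of 123 CPM per kilobase, next to Rps16 at 136, Rpl29 at 153, Rps15a at 162 and Rps20 at 190.

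Rps15a and Rps20 rank low through their annotated lengths of 5130 and 3706 bases, where the median member has 832.5 bases. By CPM alone Rps15a had 774 and 912 in Shh null and 854 and 780 in wild type. Near-identical copies can share reads. The members shared a median of 24.0% of their 50-base stretches with other genes, up to 84.0% for Rpl35, and a median of 9 annotated pseudogenes held at least 1 such stretch. Exons of 36 members overlapped another gene. How the counting treated reads that fit several places is not stated, so the level of a gene with many copies is uncertain.

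**Figure D4:**
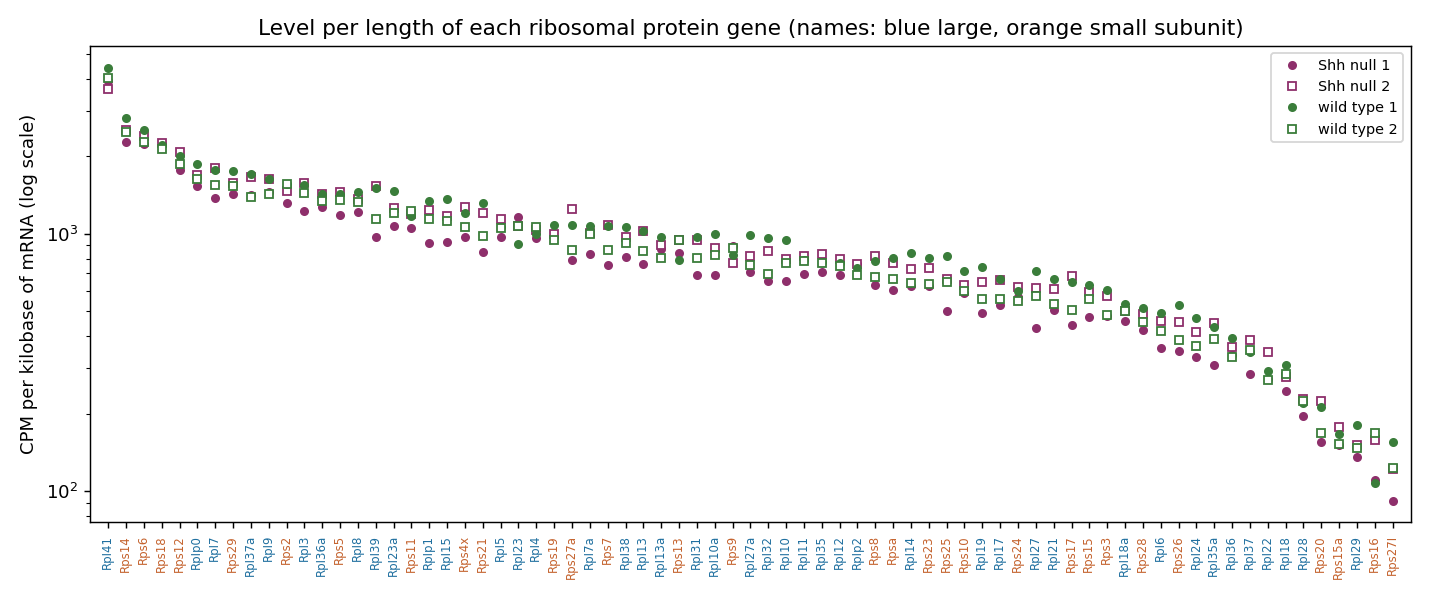
Level of each ribosomal protein gene per kilobase of its principal messenger RNA (vertical log axis, CPM per kilobase) in the Shh null libraries (purple) and the wild-type libraries (green), with genes ordered by mean level and names coloured by subunit. Rpl41 stands alone at the top with a mean of 4001 and Rps27l is lowest at 123, and the spread between libraries is small beside that between genes.

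Below the value limit lay 5 genes with matching symbols. Rpl3l, the muscle paralog of Rpl3, and Rpl39l, the testis paralog of Rpl39, had at most 0.331 CPM in any library. Rps27, Rpl30 and Rpl34 encode core proteins of the ribosome and were nonetheless near 0. Rps27 had 0.539 and 0.869 CPM in Shh null and 0.667 and 0.826 CPM in wild type, Rpl30 had 0.207 and 0.137 CPM in Shh null and 0.351 and 0.11 CPM in wild type, and Rpl34 had 0.166 and 0.183 CPM in Shh null and 0.456 and 0.275 CPM in wild type. For Rps27 these values stand for 13 and 19 reads in Shh null and 19 and 15 reads in wild type. Rps27l, the least abundant member above the limit, had at least 1106 reads in each library. Rps27, Rpl30 and Rpl34 shared 25.0%, 28.7% and 7.8% of their 50-base stretches with other genes, within the range of the members that were abundant. What set these 3 values was not tested.

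Ribosomal protein genes with symbols of another form had a similar order of libraries, with Shh null 1 lowest in all 6 tested and wild type 1 highest in 5. Of 7 such symbols listed (Gnb2l1 and Rack1 name the same gene), 6 were tested and 0 called by limma, edgeR or DESeq2, with 0 at an unadjusted p under 0.05 in each, and their median log2 fold change was −0.13. Gnb2l1, which encodes the small subunit scaffold Rack1, had 1823 and 2173 CPM in Shh null and 2302 and 1964 CPM in wild type. Its lowest library was Shh null 1 and its highest wild type 1. Rps3a1, named after its values were seen, differed from it with 2232 and 2710 CPM in Shh null and 2461 and 2586 CPM in wild type.

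Mitochondrial ribosomal protein genes, whose products build the separate ribosome of the mitochondrion, were also uncalled. Of 76 tested genes 0 were called by limma, edgeR or DESeq2, with 12, 12 and 10 lower (backgrounds 9.02%, 8.39% and 7.69%) and 0 higher at an unadjusted p under 0.05. Their median log2 fold change was −0.17, 67 of the 76 were below 0, and groups did not overlap with Shh null below in 42 of the 76, where this held for 25.0% of tested genes and for 4 of the 73 cytosolic genes. Shh null 1 was the lowest library in 55 of the 76 and wild type 1 the highest in 54, beside 59 and 41 of the 73 cytosolic genes. Median deviations were −0.15 and −0.01 in Shh null and 0.13 and 0.03 in wild type, so that Shh null 2 stood below wild type 2, the reverse of the cytosolic genes. The difference between the lists was not tested. Mrpl38 had 29.7 and 28.2 CPM in Shh null and 42.3 and 35.6 CPM in wild type, the largest difference of the list (−0.41 ± 0.13 SE, limma adjusted p = 0.126).

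Translation initiation factors had a median between those of both ribosomes. Of 40 listed genes 38 were tested, limma and edgeR called 0, with 9 lower (backgrounds 9.02% and 8.39%) and 0 higher at an unadjusted p under 0.05 in each, and DESeq2 called 1 lower (Eif4e, named after its values were seen). The log2 fold change was −0.14 for the median gene, and groups did not overlap with Shh null below in 23 of the 38 (background 25.0%). Eif5a, which helps the ribosome past hard-to-join residues, had 299 and 356 CPM in Shh null and 422 and 422 CPM in wild type (−0.37 ± 0.11 SE, limma adjusted p = 0.116). Of 17 elongation factor and other genes known for pyrimidine starts, 0 were called by limma, edgeR or DESeq2, with 2, 2 and 3 lower (backgrounds 9.02%, 8.39% and 7.69%) and 0, 0 and 1 higher (9.5%, 9.99% and 6.62%) at an unadjusted p under 0.05, and the median was −0.03. Eef1a1, the most abundant, had 15287 and 16681 CPM in Shh null and 17123 and 15630 CPM in wild type, in the common order of libraries.

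Other genes of high abundance, short transcripts, or low or high GC share (G and C in the messenger RNA) were set beside the members. The 1315 most abundant other genes, the top 10% by mean CPM, had a median log2 fold change of −0.12 and median deviations of −0.08 and −0.04 in Shh null and 0.06 and 0.06 in wild type. The 1187 other genes with the shortest messenger RNA had a median of −0.06 and deviations of −0.06 and 0.01 in Shh null and 0.06 and −0.01 in wild type, in the library order of the ribosomal genes but at a smaller size. In the 1187 other genes with the lowest GC share, the median share was 40.4%, against 51.9% in the members. Their deviations were −0.11 and 0.02 in Shh null and 0.07 and 0.01 in wild type, also in that library order. With the highest GC share (1187 genes, median 60.0%), deviations were 0.11 and −0.01 in Shh null and −0.02 and −0.07 in wild type. The part of abundance, length and GC share in the ribosomal values was not tested. Members with the start C and 4 pyrimidines had a median of −0.08, as did the members without it.

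**Figure D5:**
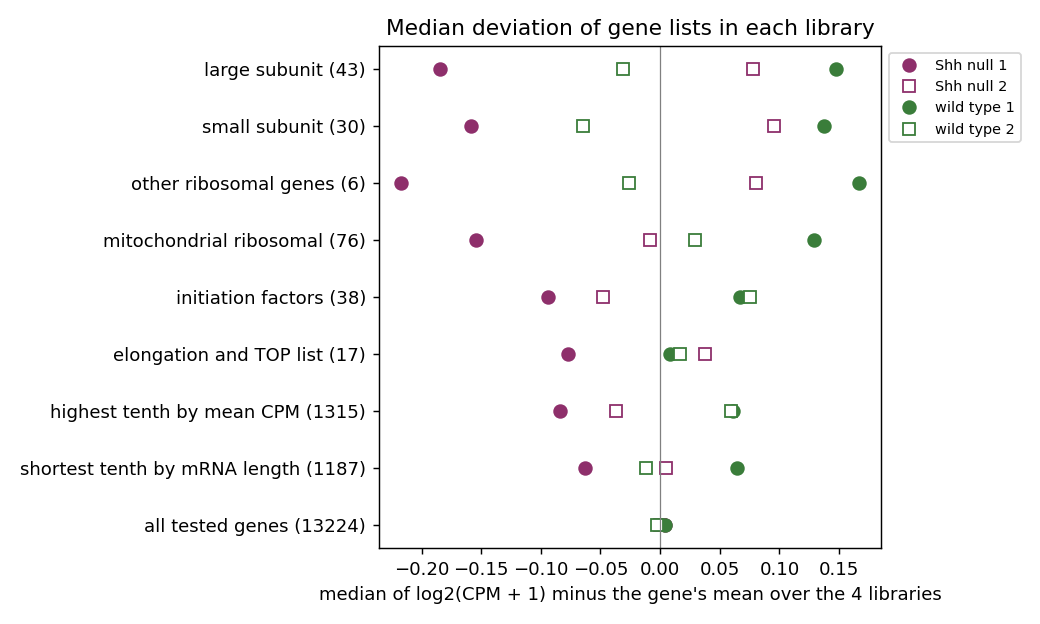
Median deviation of each list of genes (rows, number of genes in brackets) from the genes' own means, in log2(CPM + 1), for the Shh null libraries (purple) and the wild-type libraries (green), filled for replicate 1 and open for replicate 2. Shh null 2 lay right of wild type 2 for both subunits (0.08 and −0.03 for the large, 0.10 and −0.06 for the small) and left of it for the mitochondrial ribosomal protein genes (−0.01 and 0.03).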

How the data were processed

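Total RNA of forelimbs was sequenced, per the labels' protocols. The submitters' processing notes name TopHat2 2.0.9, SAMtools, HTSeq 0.5.4p5, edgeR 3.4.2 and build mm10; the sources used here give no roles, annotation, strand or multi-mapping setting. The authors deposited 1 signal value per gene and library. Every value was a whole multiple of that of 1 read (100% of values within 0.001 reads), and TMM factors recomputed from these reads gave the same scale, so the signal is TMM-scaled CPM. A deposited table of the authors' comparison gives the log2 fold change and p-value with its false discovery rate.

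Genes with at least 1 CPM in at least 2 of 4 libraries were tested (13224, with 4488 below). Log2(CPM + 1) was fitted with limma 3.58.1 (trend; R 4.3.3), with Benjamini-Hochberg adjustment over all tested genes and a threshold of 0.05. On the recovered reads edgeR 4.0.16 and DESeq2 1.42.0 were run. With 2 libraries against 2, no exact permutation test can go below p = 0.333. The fit was also run on simulated counts in which every planted change was larger than that of any member. That run does not bear on changes of the members' size. Columns belonging to no sample numbered 0. Where a replicate was left out, the lone library was assumed to vary like the other group.

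Gene positions, lengths, GC shares and shared 50-base stretches came from GENCODE M21, start windows from RefSeq GRCm38.p6. The members and lists were chosen with earlier results of these data known. Genes were named by a rule: the 5 largest and 5 smallest log2 fold changes and the 3 highest and lowest levels per subunit, the stalk genes, paralogs, and lists of roles; Rpl35, Rps2, Rps9 and Rps10 were named after their values were seen. Lists of endothelial (5 of 5 tested), surface ectoderm (7 of 7), macrophage (4 of 6) and neural (1 of 5) markers were also read. Of these genes 1 was called by limma, Cx3cr1 of the macrophage list, as higher (background 1.24%). Both Shh null libraries were above both wild-type libraries in 4 of 4 macrophage and 4 of 7 surface ectoderm genes (background 25.1%). This held for 0 of the endothelial and neural genes. The macrophage genes were scarce, with sums of 16.5 and 15.3 CPM in Shh null and 8.32 and 7.77 CPM in wild type.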

Additional observations from a re-analysis of the deposited data

How the results depend on the processing

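The ribosomal protein genes called stayed at 0 in each direction with a pseudocount of 0.1 or 5, either other filter, edgeR, DESeq2, quantile, total-read or median-ratio scaling, TMM factors without these genes, and the replicate block. The exceptions were 2 called lower without wild type 2 (Rps25 and Rps27l, both small subunit, background 3.15%), and 3 with the libraries crossed. Leaving out 1 library moved the count of members called lower between 0 and 2, their median between −0.23 and 0.04, the large minus small difference between −0.052 and −0.025, and the counts over all genes, 164 higher and 164 lower, between 15 and 386 and between 41 and 416. All genes gave 79 higher and 91 lower without a filter (more genes tested) and 253 and 273 with DESeq2; the cause was not tested. With total-read scaling the members' median was −0.01, where that of all genes was 0.07. Same-numbered libraries deviated oppositely (r = −0.203 across genes), which cannot decide whether the numbers pair them. The replicate block gave a median of −0.09 and 220 higher and 176 lower over all genes. A crossed pairing, chosen after seeing the data, called 3 members lower (1 large, Rpl27; 2 small, Rps25 and Rps27l; background 5.63%) and 641 higher and 745 lower over all genes. Of 656 values of named genes under alternatives, 577 stayed within the spread, 74 moved, 5 passed the threshold newly and 0 reversed a call. Each member had at least 1106 reads in each library, and each group had 2 libraries.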
